A study of Rattus norvegicus with 16 samples.

Results

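The transcripts described here are those of 10 genes that bring fatty acids into the muscle cell and join them to coenzyme A: Cd36, Fabp3, Slc27a1, Slc27a4, Acsl1, Acsl3, Acsl4, Acsl5, Acsl6 and Acsm5. They were chosen by name, with earlier results of these data known. All 10 were found among the 17147 genes of the deposited table and among the 11658 genes with enough fragments to be tested. RNA came from the supraspinatus, a rotator cuff muscle, of Sprague Dawley rats. The 4 groups of 4 libraries are unoperated muscle (0 days, the controls) and muscle taken 10, 30 and 60 days after a bilateral operation. That operation combined a full-thickness supraspinatus tear with suprascapular neurectomy, the removal of part of the nerve that supplies the muscle. Every operated group carries both lesions, so tear and loss of the nerve cannot be told apart in these samples. No sham-operated group was analysed here. All unoperated libraries belong to the 0-day group, so the passing of time cannot be told apart from the injury either. Age and sex of the rats, and which libraries came from the same rat, are not given in the sources used here. P-values therefore measure the spread between these libraries.

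Long-chain fatty acids reach a muscle fibre from albumin or from lipoproteins split in the capillary. CD36 and the fatty acid transport proteins (the Slc27a family) help them across the membrane, and FABP3 carries them through the cytosol. Acyl-CoA synthetases then attach coenzyme A, which traps the fatty acid in the cell and makes it fit for oxidation, storage as triacylglycerol or insertion into membrane phospholipid. The ACSL enzymes act on long chains and differ in location and preferred substrate, and the ACSM enzymes act on medium chains in mitochondria. Fat builds up in rotator cuff muscle that is torn and has lost its nerve, which makes this entry step of interest there.

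The members did not move together. At 10 days the synthetase genes Acsl3 and Acsl4 were 5.34-fold and 6.73-fold higher than at 0 days, while Acsl6 was 8.06-fold lower and Acsm5 40.6-fold lower. Acsl1, Cd36, Fabp3 and Slc27a1 were 2.01-fold to 2.71-fold lower, Slc27a4 was 1.34-fold higher, and Acsl5 was not called. Calls here rest on edgeR's quasi-likelihood test, with p-values adjusted over all 11658 genes (Benjamini-Hochberg) and a threshold of 0.05. By that rule 3 members were higher and 6 lower at 10 days, 3 higher and 5 lower at 30 days, and 2 higher and 6 lower at 60 days. Of all genes tested, 33.3% were called higher and 29.4% lower at 10 days. The shares were 33.7% and 30.9% at 30 days, and 29.9% and 29.1% at 60 days. The median log2 fold change of the 10 members was -1.04, -0.63 and -0.57 at the 3 times, against 0.061, 0.046 and 0.040 over all genes. The libraries of 9, 7 and 7 members did not overlap with those of 0 days at the 3 times, as was the case for 59.0%, 60.2% and 50.0% of all genes. All 3 comparisons use the same 0-day libraries.

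Levels are given as CPM, that is, how many of each 1 M fragments (M, mega) in a library belong to a gene, after scaling with TMM factors, which centre the bulk of the genes. A log2 fold change is followed by ± its standard error. Scaling by library totals alone raised the median over all genes (log2) by 0.66, 0.49 and 0.41 at 10, 30 and 60 days, and upper-quartile factors moved it by 0.054, 0.12 and 0.14. Of the genes called, 53.1%, 52.2% and 50.7% were higher with TMM factors and 87.4%, 84.1% and 82.7% with library totals. The members were called 4 higher and 5 lower at 10 days, and 4 higher and 4 lower at both 30 and 60 days, with library totals. With upper-quartile factors 4 were higher and 5 lower at 60 days. Members whose call changes with library totals are named below. Whether the levels of libraries overlap was judged on TMM-scaled CPM only, and this can change with library totals. For Cd36, 60-day replicate 2 had 6247 of 17.6 M fragments, a larger share than the 8268 of 29.9 M in 0-day replicate 3. The number of fragments in a gene also depends on its length, so levels are compared within a gene and not between genes.

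Library totals ran from 17.2 to 39.9 M fragments, and the 4 libraries at 60 days, at 17.2 to 22.4 M, were the smallest of all. A count of 3 fragments, taken as the smallest level that could be seen, was 0.0752 to 0.175 CPM before TMM scaling. The lowest count of any member was 15 fragments, for Acsm5 at 10 days. Labelled as muscle, the libraries carried muscle fibre transcripts at a high level. The sum over 10 such genes (Ckm, Acta1, Actn3, Myh1, Myh2, Myh4, Myh7, Mb, Tnnt3 and Pvalb) was 229520 to 251770 CPM at 0 days, 66682 to 72001 at 10 days, 109540 to 153670 at 30 days and 133560 to 157150 at 60 days.

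**Figure D1:**
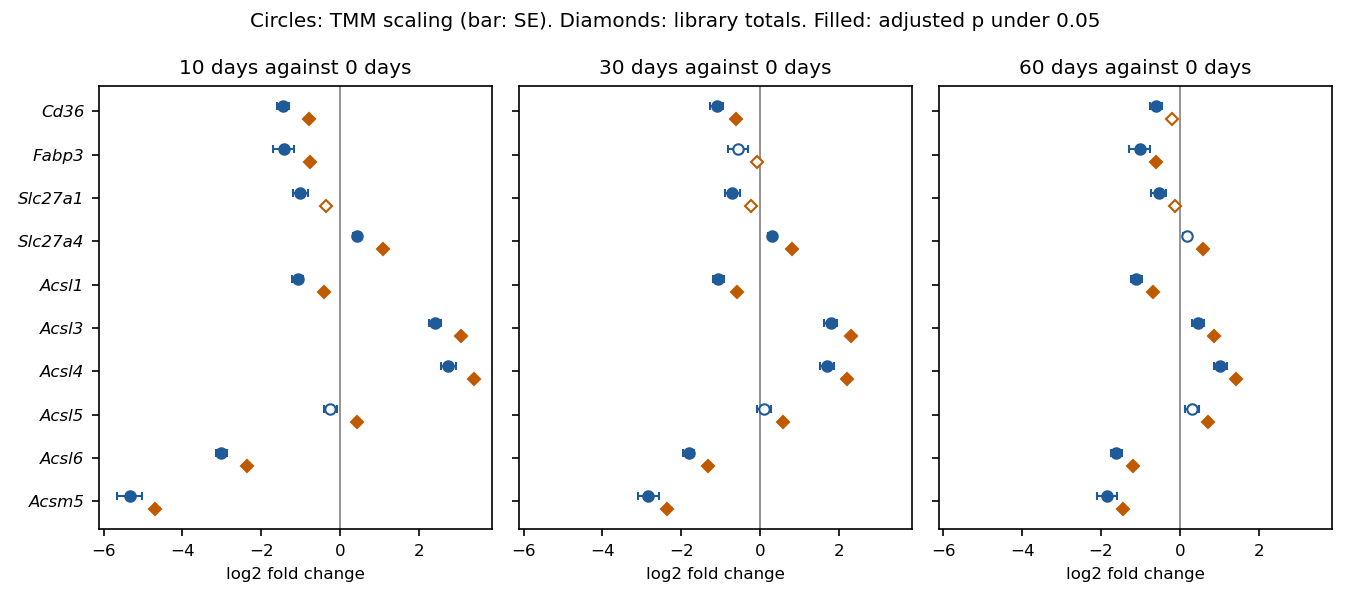
Log2 fold change of each member at 10, 30 and 60 days against 0 days. Circles show TMM scaling with the standard error as a bar, diamonds show scaling by library totals, and filled symbols have an adjusted p under 0.05. Acsl3 and Acsl4 lie to the right of 0 and Acsl6 and Acsm5 to the left at all 3 times under both scalings, while Acsl5 is not called with TMM scaling and lies to the right of 0, called, with library totals.

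Of the 4 uptake and carriage genes, 3 were lower and 1 higher at 10 days, 2 lower and 1 higher at 30 days, and 3 lower at 60 days. With library totals 2 were lower and 1 higher at 10 days, and 1 lower and 1 higher at each later time. Cd36, a membrane glycoprotein that moves to the fibre surface during contraction, measured 470.0, 467, 369 and 509 CPM in the 4 unoperated libraries. It measured 178, 125, 158 and 207 CPM at 10 days, 195, 254, 209 and 188 at 30 days and 234, 350.4, 319 and 293 at 60 days. Every operated library lay below every unoperated library in TMM-scaled CPM. Against 0 days its log2 fold change was -1.44 ± 0.16, adjusted p 7.23e-07, at 10 days, -1.10 ± 0.16, adjusted p 1.45e-05, at 30 days and -0.60 ± 0.15, adjusted p 0.00334, at 60 days. The level at 60 days was higher than at 10 days (0.84 ± 0.15, adjusted p 0.000204), and those libraries did not overlap either. From 10 to 30 days it was not called (0.34 ± 0.15, adjusted p 0.0802), but it was with upper-quartile factors (0.41, adjusted p 0.0482) and without the 10-day replicate 4 (0.46, adjusted p 0.0258). It was called from 30 to 60 days (0.50 ± 0.15, adjusted p 0.0286), but not when any of 5 libraries was left out: 30-day replicates 1, 3 and 4 and 60-day replicates 2 and 3 (adjusted p 0.0526 to 0.0929). With library totals the difference at 60 days from 0 days was -0.19 (adjusted p 0.291) and no longer called, and neither was the step from 30 to 60 days (0.42). The step from 10 to 30 days was then 0.17 (adjusted p 0.399). The RefSeq annotation lists 2 genes with names derived from Cd36 on the same chromosome, Cd36l1 and Cd36-ps1. Cd36l1, under its other name RGD1565355, is listed at 0 in all 16 libraries, so how fragments shared with such copies were assigned is uncertain.

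In whole muscle, fewer cells of a type and less RNA per cell cannot be told apart. Capillary endothelium also makes CD36. Of 10 endothelial marker genes 9 fell at 10 days, 4 fell at 30 days, and at 60 days 2 fell (Kdr and Flt1) and 1 rose (Pecam1). With library totals 2 fell at 10 days, 4 rose and 1 fell at 30 days, and 8 rose at 60 days, and the median of the 10 (log2) turned from -0.58 to 0.078 at 10 days and from -0.35 to 0.14 at 30 days. All 10 were higher at 60 than at 10 days. Their summed level was 432 to 489 CPM at 0 days, 230 to 339 at 10 days, 340.4 to 385 at 30 days and 376 to 576 at 60 days. None of the 10 was at 0 in any group as a whole. Adipocytes are another source, and of 7 adipocyte marker genes 1 rose at 10 and 30 days against 0 days, Cidea, and all 7 rose at 60 days, under each of the 4 scalings except that 2 rose at 30 days with library totals. Their summed level was 19.8 to 78.1, 37.7 to 64.7, 49.8 to 72.5 and 100.1 to 209 CPM in the same order. The part of these cells in the Cd36 values was not tested. Nor was that of muscle fibres and macrophages, whose markers are given with other members.

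Fabp3, the fatty acid binding protein of heart and muscle cytosol, measured 665, 568, 447 and 563 CPM at 0 days. At 10 days it measured 213, 140.3, 178 and 304, at 30 days 243, 556, 426 and 298 and at 60 days 196, 339, 303 and 271. In TMM-scaled CPM the libraries at 10 and 60 days lay below all unoperated libraries. Those at 30 days overlapped them, with replicate 2 inside the unoperated range. Fabp3 was lower at 10 days (-1.42 ± 0.26, adjusted p 0.000226) and at 60 days (-1.02 ± 0.26, adjusted p 0.00373). At 30 days it was not called (-0.56 ± 0.26, adjusted p 0.0716). That value turned into a call without the 30-day replicate 2 (-0.80, adjusted p 0.0127), without the 10-day replicate 4 (-0.56, adjusted p 0.0460), with DESeq2 (-0.59, adjusted p 0.0354) and with the title letter as a covariate (-0.64, adjusted p 0.0478). With library totals it was near 0 and not called (-0.081, adjusted p 0.784). The 60-day fall was then -0.61 (adjusted p 0.0484) and the 10-day fall -0.77 (adjusted p 0.0133). The rise from 10 to 30 days (0.87 ± 0.26, adjusted p 0.0129) was lost without the 30-day replicate 2 (0.63, adjusted p 0.0527), with fits of the 2 groups alone (0.86, adjusted p 0.0548) and with the title letter (0.71, adjusted p 0.0591). Between 10 and 60 days Fabp3 was not called (0.41 ± 0.26, adjusted p 0.186), but it was without the 10-day replicate 4 (0.65, adjusted p 0.0392). In the order 0, 30, 60 and 10 days no pair of neighbours was called (60 against 30 days: -0.46 ± 0.26, adjusted p 0.224).

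Slc27a1, the transport protein FATP1 of insulin-sensitive muscle and fat, measured 24.6, 26.5, 18.4 and 30.2 CPM at 0 days. It measured 14.97, 9.46, 12.9 and 12.1 at 10 days, 13.3, 19.4, 17.4 and 11.02 at 30 days and 13.1, 17.7, 20.2 and 17.9 at 60 days. The 10-day libraries lay below all unoperated libraries in TMM-scaled CPM, and at the later times the ranges overlapped. It was lower at 10 days (-1.01 ± 0.19, adjusted p 0.000254), 30 days (-0.70 ± 0.19, adjusted p 0.00435) and 60 days (-0.54 ± 0.19, adjusted p 0.0252). All 3 calls were lost with library totals, which gave -0.35, -0.22 and -0.12. The 60-day call was also lost with upper-quartile factors (-0.39, adjusted p 0.102) and without any of 5 libraries, the 0-day replicates 1, 2 and 4 and the 60-day replicates 1 and 4 (-0.53 to -0.41, adjusted p 0.0514 to 0.0982). In the order 0, 60, 30 and 10 days the later neighbours did not differ beyond their spread (0.17 ± 0.19, adjusted p 0.574, for 60 against 30 days; 0.31 ± 0.19, adjusted p 0.199, for 30 against 10 days). The difference between 60 and 10 days (0.47 ± 0.19, adjusted p 0.0437) was lost in 6 of the 16 fits without 1 library (10-day and 60-day replicates 2, 3 and 4), with limma-voom, with no filter for low counts, with the replicate block (0.46, adjusted p 0.0757) and with library totals.

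Slc27a4, the transport protein FATP4, which is itself an acyl-CoA synthetase of the endoplasmic reticulum, went the other way by a small amount. It measured 12.4, 14.1, 12.5 and 10.8 CPM at 0 days, 16.5, 16.3, 16.97 and 17.2 at 10 days, 14.5, 15.9, 14.7 and 16.9 at 30 days and 14.7, 16.8, 13.04 and 12.2 at 60 days. The 10-day and 30-day libraries lay above all unoperated libraries, and the 60-day libraries overlapped them. Slc27a4 was higher at 10 days (0.43 ± 0.10, adjusted p 0.00178) and 30 days (0.31 ± 0.10, adjusted p 0.0138). The 30-day call was lost without the 0-day replicate 4 (0.26, adjusted p 0.0523). At 60 days it was not called (0.18 ± 0.10, adjusted p 0.141), but it was with library totals (0.59, adjusted p 0.000146), with upper-quartile factors (0.32, adjusted p 0.0105) and without the 60-day replicate 4 (0.27, adjusted p 0.0425). In the order 10, 30, 60 and 0 days no neighbours were called (-0.11 ± 0.10, adjusted p 0.384, for 30 against 10 days; -0.13 ± 0.10, adjusted p 0.392, for 60 against 30 days), though 30 against 10 days was with library totals (-0.28, adjusted p 0.0381). From 10 to 60 days its value was -0.24 ± 0.10, adjusted p 0.0515. That difference was called with library totals (-0.49, adjusted p 0.000591), without the 60-day replicate 2 (-0.33, adjusted p 0.0104), and with limma-voom, no filter for low counts, the title letter and thinning (-0.28 to -0.24, adjusted p 0.0345 to 0.0475). With the replicate block it was called too (-0.25, adjusted p 0.0496).

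**Figure D2:**
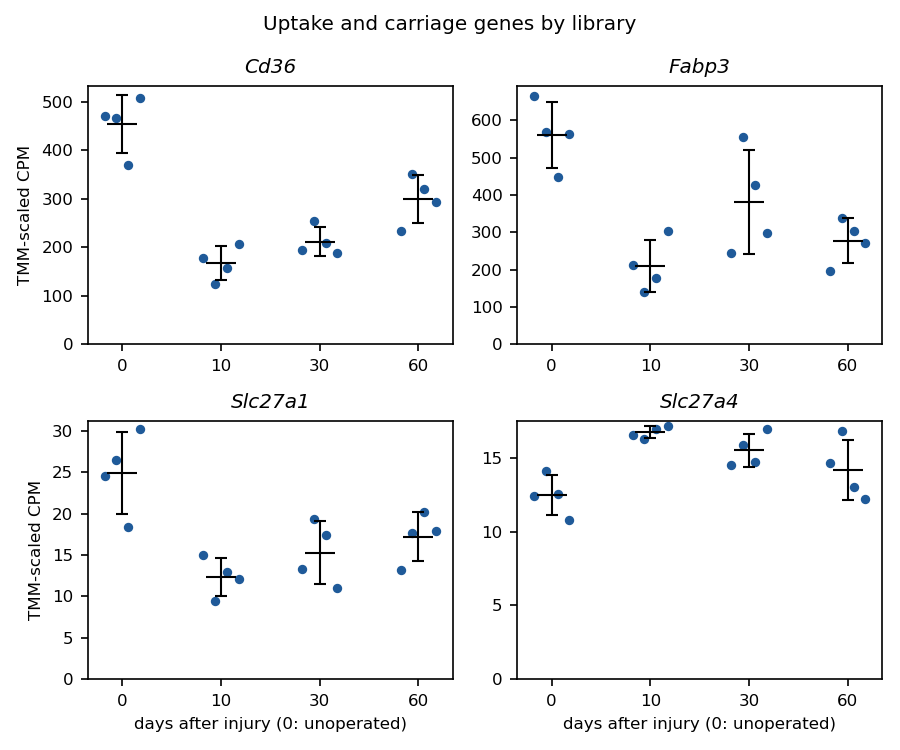
Level of the 4 uptake and carriage genes in each of the 16 libraries, in TMM-scaled CPM, against days after injury. Points are libraries, the horizontal mark is the group mean and the bar its SD (n = 4). Cd36 averages 454 CPM at 0 days, 167 at 10 days and 299 at 60 days, and Slc27a4 alone among the 4 has its lowest mean at 0 days.

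Acsl3 and Acsl4 were the members that rose at every time. ACSL3 sits on the endoplasmic reticulum and on forming lipid droplets, and ACSL4 prefers arachidonate and so feeds polyunsaturated fatty acids into phospholipids. Because they moved together, the stretches around their transcription start (250 bases before to 50 after, from RefSeq, build GRCr8) are shown. Capitals mark the GC box, GGGCGG on either strand, the site of SP family factors. Acsl3 lies at chr9:87563351-87563650 on the plus strand and Acsl4 at chrX:110803212-110803511 on the minus strand; the fragments were counted on another build, rn5, per the submitters' processing notes.
Acsl3: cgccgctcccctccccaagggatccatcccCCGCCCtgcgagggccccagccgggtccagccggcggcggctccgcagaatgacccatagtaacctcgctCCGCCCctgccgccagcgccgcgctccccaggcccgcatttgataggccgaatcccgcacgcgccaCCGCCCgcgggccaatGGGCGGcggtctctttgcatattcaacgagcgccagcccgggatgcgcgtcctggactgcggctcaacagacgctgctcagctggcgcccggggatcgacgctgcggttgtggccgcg
Acsl4: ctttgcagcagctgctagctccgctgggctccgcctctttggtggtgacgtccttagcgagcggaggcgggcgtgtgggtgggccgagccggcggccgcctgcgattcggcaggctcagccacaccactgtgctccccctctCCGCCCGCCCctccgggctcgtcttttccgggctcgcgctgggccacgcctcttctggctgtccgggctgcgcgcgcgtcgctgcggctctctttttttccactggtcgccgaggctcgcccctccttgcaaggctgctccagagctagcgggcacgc
The Acsl3 stretch holds 4 GC boxes and 39 CG pairs, and the Acsl4 stretch 2 GC boxes, which overlap each other, and 33 CG pairs. Among all 33469 promoters of this length 33.1% held a GC box, and the median number of CG pairs was 7.

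Acsl3 measured 27.8, 25.1, 28.7 and 27.4 CPM at 0 days, 116, 145, 168 and 152 at 10 days, 127, 82.4, 76.5 and 91.2 at 30 days and 45.01, 32.2, 33.3 and 39.3 at 60 days. Every operated library lay above every unoperated one. Its log2 fold change was 2.42 ± 0.16, adjusted p 3.37e-09, at 10 days, 1.79 ± 0.15, adjusted p 8.23e-08, at 30 days and 0.46 ± 0.15, adjusted p 0.0170, at 60 days. The level then fell step by step, by 0.62 on the log2 scale from 10 to 30 days (adjusted p 0.00264) and by 1.33 from 30 to 60 days (adjusted p 3.22e-05). Highest to lowest, the order of the groups was 10, 30, 60 and 0 days, and every pair of neighbours was called. The 10-day and 30-day libraries overlapped in 1 library each, since 10-day replicate 1 (116 CPM) lay below 30-day replicate 1 (127 CPM). The 60-day call was lost without the 60-day replicate 1 (0.36, adjusted p 0.0607).

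Acsl4 measured 35.8, 48.2, 47.6 and 46.5 CPM at 0 days, 288, 284, 291 and 337 at 10 days, 152, 141, 128 and 160.2 at 30 days and 134, 72.02, 66.3 and 91.6 at 60 days. Here too every operated library lay above every unoperated one. Its log2 fold change was 2.75 ± 0.18, adjusted p 3.73e-09, at 10 days, 1.70 ± 0.17, adjusted p 5.40e-07, at 30 days and 1.03 ± 0.17, adjusted p 0.000110, at 60 days. Acsl4 fell by 1.05 on the log2 scale from 10 to 30 days (adjusted p 0.000119) and by 0.67 from 30 to 60 days (adjusted p 0.0102), so all neighbours in the order 10, 30, 60 and 0 days were called. The step from 30 to 60 days was lost when only those 2 groups were fitted (-0.67, adjusted p 0.0517), and the 60-day replicate 1, at 134 CPM, lay within the 30-day range. Replicate 1 was the highest of the 60-day libraries for both Acsl3 and Acsl4.

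Other cells of the muscle, macrophages and fibroblasts among them, also express long-chain synthetases. Of 9 macrophage marker genes 8 rose at 10 days and 9 at both 30 and 60 days. Their summed level was 20.1 to 34.9 CPM at 0 days, 69.95 to 96.4 at 10 days, 96.4 to 126 at 30 days and 76.2 to 143 at 60 days. Of 9 fibroblast marker genes tested 6 rose at 10 days and 9 at 30 and 60 days; with library totals all 9 of both lists rose at all 3 times. Their summed level was 528 to 1087 CPM at 0 days, 982 to 2807 at 10 days, 1592 to 2516 at 30 days and 1477 to 3133 at 60 days. Col1a2, also on that list, is listed at 0 in all libraries. The part of these cells in the Acsl3 and Acsl4 values was not tested.

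Acsl6 and Acsm5 fell at every time, with the lowest level at 10 days. ACSL6, best known from brain, favours polyunsaturated fatty acids such as docosahexaenoate, and ACSM5 is a mitochondrial enzyme for medium chains. The stretches around their starts are shown in the same way for contrast with the pair that rose, Acsl6 at chr10:38951911-38952210 and Acsm5 at chr1:183302259-183302558, both on the plus strand.
Acsl6: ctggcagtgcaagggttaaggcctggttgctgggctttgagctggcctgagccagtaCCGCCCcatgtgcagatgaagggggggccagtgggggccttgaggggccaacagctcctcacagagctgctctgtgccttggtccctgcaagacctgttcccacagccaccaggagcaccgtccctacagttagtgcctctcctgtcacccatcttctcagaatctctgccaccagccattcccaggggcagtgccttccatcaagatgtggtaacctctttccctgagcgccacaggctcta
Acsm5: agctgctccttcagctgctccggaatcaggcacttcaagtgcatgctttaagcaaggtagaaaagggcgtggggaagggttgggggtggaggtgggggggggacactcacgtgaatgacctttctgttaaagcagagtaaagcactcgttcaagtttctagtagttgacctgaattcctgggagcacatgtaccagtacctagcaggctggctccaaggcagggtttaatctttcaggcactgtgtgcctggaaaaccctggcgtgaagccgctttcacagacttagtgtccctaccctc
The Acsl6 stretch holds 1 GC box and 3 CG pairs, and the Acsm5 stretch 0 GC boxes and 6 CG pairs. Of the other 6 members only Slc27a4 holds a GC box, with 2. In the order of the opening list, the 10 stretches hold 4, 24, 13, 15, 4, 39, 33, 5, 3 and 6 CG pairs. Whether these annotated starts are the ones used in this muscle was not tested. Fabp3, with 24, fell, and Acsl5, with 5, was not called against 0 days with TMM factors. The stretches printed were chosen by how their genes changed, and a link between CG pairs and direction was not tested.

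Further motifs were searched on both strands of the 10 stretches. The direct repeat AGGTCANAGGTCA, bound by PPAR with RXR, was in 0 of 10 and in 0.0538% of all promoters. The sterol response motif TCACNCCAC was in 0 of 10 and 1.12% of all. The E-box CANNTG, the site of myogenic factors such as myogenin, was in 8 of 10 (all but Slc27a4 and Acsl5) and 72.1% of all. The CCAAT box was in 3 of 10 (Slc27a1, Acsl1 and Acsl3) and 37.5% of all, and TATAAA in 2 of 10 (Cd36 and Acsl5) and 14.2% of all. The CCAAT box can overlap the GC box, and these letters say nothing of binding.

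Acsl6 measured 124, 117, 139 and 118 CPM at 0 days, 20.7, 11.5, 13.05 and 16.5 at 10 days, 33.4, 36.7, 37.9 and 34.1 at 30 days and 40.1, 40.2, 38.5 and 44.8 at 60 days. The 4 groups did not overlap at all in TMM-scaled CPM, in the order 0, 60, 30 and 10 days. Its log2 fold change was -3.01 ± 0.14, adjusted p 1.21e-10, at 10 days, -1.81 ± 0.13, adjusted p 1.15e-08, at 30 days and -1.61 ± 0.13, adjusted p 7.44e-08, at 60 days. It rose from 10 to 30 days (1.20 ± 0.13, adjusted p 3.46e-06), whereas 60 against 30 days was not called (0.20 ± 0.13, adjusted p 0.283). At 60 days Acsl6 stood at 32.8% of its mean at 0 days.

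Acsm5 measured 24.1, 21.9, 19.9 and 22.4 CPM at 0 days and 0.638, 0.526, 0.494 and 0.492 at 10 days, which was 15 to 22 fragments a library. It measured 1.45, 4.06, 4.64 and 2.17 CPM at 30 days and 4.29, 7.74, 6.66 and 6.0 at 60 days. The 10-day libraries lay below all others and the unoperated libraries above all others, while the 30-day and 60-day ranges overlapped. Acsm5 had the largest fall of the 10 members, with log2 fold changes of -5.34 ± 0.32, adjusted p 1.26e-09, at 10 days, -2.83 ± 0.26, adjusted p 1.80e-07, at 30 days and -1.84 ± 0.25, adjusted p 1.62e-05, at 60 days. It rose from 10 to 30 days (2.51 ± 0.33, adjusted p 1.42e-05) and from 30 to 60 days (0.99 ± 0.27, adjusted p 0.0144). The latter step was lost when those 2 groups were fitted alone (0.99, adjusted p 0.0815). As a share of the unoperated mean, the level was 2.43% after 10 days, 13.95% after 30 and 28.0% after 60. The summed muscle fibre markers given above were also lowest at 10 days. Of the 10 genes in that sum 9 fell and 1 rose at 10 days, 7 fell and 1 rose at 30 days, and 6 fell and 2 rose at 60 days. Mb, the myoglobin gene, rose at all 3 times (0.50, 1.01 and 0.49) and Myh2, a fast myosin heavy chain, at 60 days (0.63). With library totals 8 fell and 1 rose at 10 days, 5 and 2 at 30 days, and 4 and 2 at 60 days. The part of muscle fibre content in the values of Acsl6 and Acsm5 was not tested. The same holds for Acsl1, Fabp3, Slc27a1 and the other members.

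Acsl1, the main long-chain synthetase of muscle, heart and fat, fell and did not return. It measured 783, 714, 624 and 723 CPM at 0 days, 382, 285, 334 and 347 at 10 days, 279, 444, 352 and 291 at 30 days and 279, 379, 364 and 306 at 60 days. In TMM-scaled CPM the operated libraries all lay below the unoperated ones. Its log2 fold change was -1.08 ± 0.14, adjusted p 5.59e-06, at 10 days, -1.06 ± 0.14, adjusted p 7.90e-06, at 30 days and -1.10 ± 0.14, adjusted p 7.66e-06, at 60 days. The operated groups overlapped each other, and differences between them were small: 0.019 ± 0.14, adjusted p 0.922 (30 against 10 days), -0.042 ± 0.14, adjusted p 0.863 (60 against 30) and -0.023 ± 0.14, adjusted p 0.900 (60 against 10). With library totals the 3 falls were still called, at -0.42, -0.57 and -0.69.

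Acsl5, a synthetase of the endoplasmic reticulum and mitochondria, was not called against 0 days at any time with TMM factors. It measured 10.6, 14.5, 14.6 and 13.1 CPM at 0 days, 11.8, 8.28, 13.2 and 11.4 at 10 days, 14.1, 15.7, 15.0 and 12.1 at 30 days and 11.8, 18.6, 14.2 and 20.9 at 60 days, and every operated group overlapped the unoperated one. Against 0 days its values were -0.24 ± 0.17, adjusted p 0.230, at 10 days, 0.10 ± 0.17, adjusted p 0.612, at 30 days and 0.31 ± 0.17, adjusted p 0.136, at 60 days. With library totals the 10-day value turned to 0.42 (adjusted p 0.0480), and the 30-day (0.60) and 60-day (0.73) values were called higher as well. The 60-day value was also called with upper-quartile factors (0.45, adjusted p 0.0423) and without the 60-day replicate 1 (0.44, adjusted p 0.0272). Between 30 and 10 days (0.35 ± 0.17, adjusted p 0.105) and 60 and 30 days (0.20 ± 0.17, adjusted p 0.425) Acsl5 was not called. It was higher at 60 than at 10 days (0.55 ± 0.17, adjusted p 0.0110), a call lost with library totals (0.31).

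**Figure D3:**
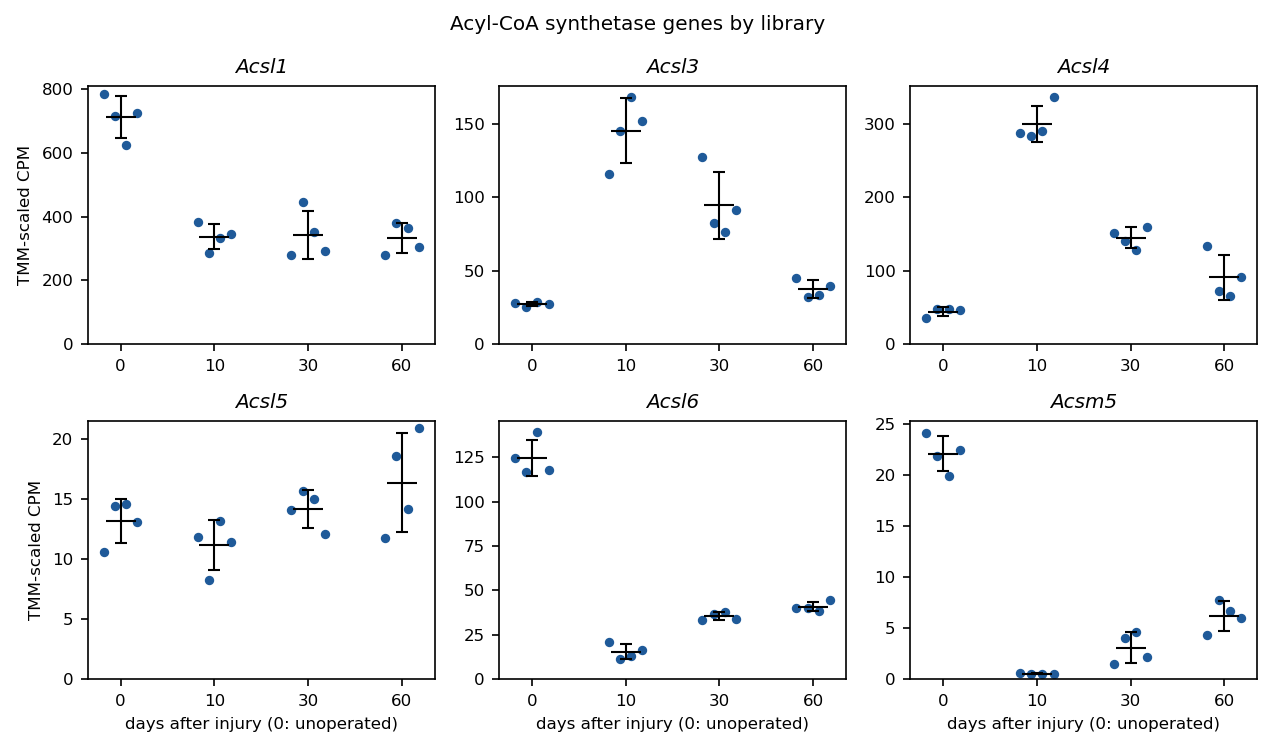
Level of the 6 acyl-CoA synthetase genes in each of the 16 libraries, in TMM-scaled CPM, against days after injury. Points are libraries, the horizontal mark is the group mean and the bar its SD (n = 4). Acsl3 and Acsl4 peak at 10 days, Acsl6 and Acsm5 are lowest then, Acsl1 stays at means of 332 to 342 CPM in all operated groups, and the Acsl5 groups overlap.

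Ratios of fragments of 2 genes within a library need no scaling factor, so they show unequal change whatever the scaling. Relative to the mean at 0 days, the log2 ratio of Acsl4 to Acsl1 was 3.84 ± 0.18 (SD, n = 4) at 10 days, 2.79 ± 0.41 at 30 days and 2.09 ± 0.65 at 60 days. That of Acsl3 to Acsl1 was 3.48 ± 0.35, 2.84 ± 0.58 and 1.55 ± 0.43. The Acsl6 to Acsl1 ratio moved down, to -1.97 ± 0.22, -0.73 ± 0.25 and -0.50 ± 0.26. None of these overlapped the 0-day libraries, and neither did the ratio of Acsl5 to Acsl1 (0.83 ± 0.19, 1.19 ± 0.21 and 1.39 ± 0.36). Acsl1 therefore lost ground to Acsl3, Acsl4 and Acsl5 at all 3 times and Acsl6 lost ground to Acsl1, under any scaling of the libraries. Acsl4 to Acsl3 overlapped the unoperated libraries at 10 and 30 days (0.35 ± 0.23 and -0.054 ± 0.26) and not at 60 days (0.54 ± 0.24). Slc27a4 to Slc27a1 was 1.44 ± 0.27, 1.04 ± 0.42 and 0.71 ± 0.38, overlapping at 60 days only. Fabp3 to Cd36 was -0.015 ± 0.18, 0.48 ± 0.37 and -0.42 ± 0.091, overlapping at 10 and 30 days and not at 60 days.

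**Figure D4:**
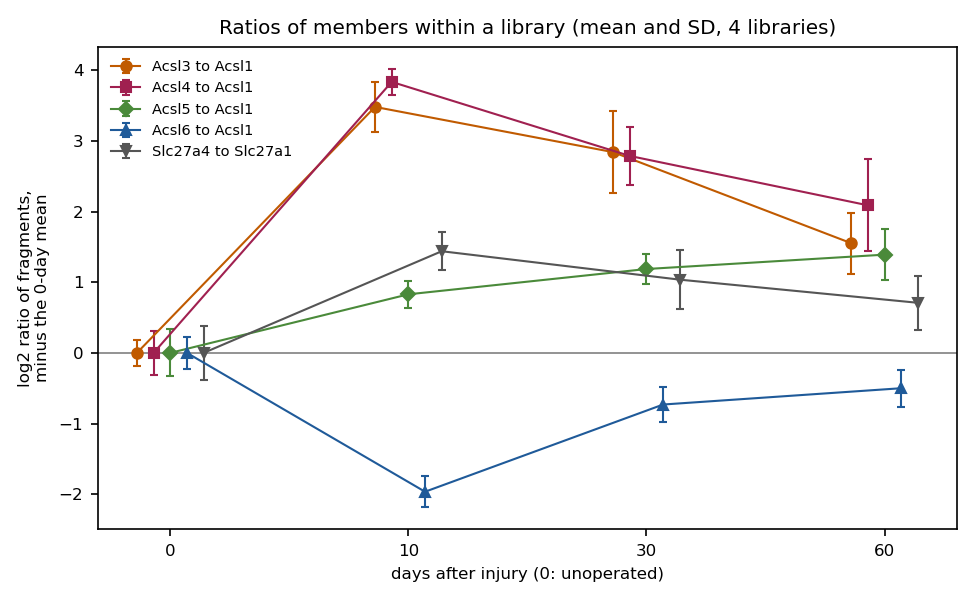
Log2 ratio of the fragments of 2 members within a library, minus the mean at 0 days, against days after injury. Symbols are means and bars SDs of 4 libraries. Acsl3 and Acsl4 gain most on Acsl1 at 10 days (3.48 and 3.84), the gain of Acsl5 is 0.83 at 10 days and 1.39 at 60 days, and Acsl6 lies below 0 at all 3 times.

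Between the operated groups, 3 members were higher and 2 lower at 30 than at 10 days, where 23.0% of all genes were called higher and 24.3% lower. The members higher were Fabp3, Acsl6 and Acsm5, and the lower ones Acsl3 and Acsl4. From 30 to 60 days 2 were higher (Cd36 and Acsm5) and 2 lower (Acsl3 and Acsl4), against 10.3% and 12.4% of all genes. At 60 against 10 days 5 were higher (Cd36, Slc27a1, Acsl5, Acsl6 and Acsm5) and 2 lower (Acsl3 and Acsl4), against 29.1% and 31.9%. The groups of 3, 2 and 5 members did not overlap in these comparisons, against 43.8%, 20.1% and 51.2% of all genes. With library totals the members split 3 higher and 3 lower, 1 and 2, and 3 and 3 in these comparisons, and with upper-quartile factors 4 and 2 at 30 against 10 days.

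Other genes of uptake and carriage numbered 22 in the table, of which 14 could be tested. At 10 days 2 were higher and 9 lower, at 30 days 4 and 8, and at 60 days 4 and 3, with median log2 fold changes of -0.66, -0.49 and 0.11. With library totals these were 3 higher and 5 lower, 6 and 4, and 7 and 1, with medians of -0.0023, 0.0032 and 0.53. Cav3, the caveolin of muscle membrane, fell from 167 CPM ± 17.3 (SD, n = 4) to 26.8 ± 8.61 at 10 days (-2.64 ± 0.21, adjusted p 3.20e-08) and stood at 140 ± 7.69 at 60 days, a difference that was not called (-0.26, which library totals turned to 0.15). Gpihbp1, which holds lipoprotein lipase on the capillary wall, fell at 10 days (-1.84 ± 0.25, adjusted p 1.03e-05) and 30 days (-0.74 ± 0.24, adjusted p 0.0141) but not at 60 days (-0.23, which library totals turned to 0.19); its 30-day fall was not called with library totals (-0.26). Vldlr, a receptor for triacylglycerol-rich lipoproteins, was lower at all 3 times (-1.40 ± 0.10, adjusted p 7.75e-09, at 10 days; -0.87 ± 0.10, adjusted p 2.79e-06, at 60 days). Lrp1, another lipoprotein receptor, rose at all 3 times (1.08, 1.22 and 1.21), as did Fabp5, a fatty acid binding protein found in macrophages among other cells (1.25, 0.44 and 0.52).

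Among other acyl-CoA synthetases 11 were in the table and 5 tested, with 1 higher and 4 lower at both 10 and 30 days and 1 called at 60 days, lower. The gene called higher was Aacs and the one lower at 60 days Acss3, both named after their values were seen. With library totals 1 was higher and 2 lower at both earlier times and 1 and 1 at 60 days, and the 10-day value of Acss3 turned from -0.58 to 0.074. Acss1, the mitochondrial acetyl-CoA synthetase, fell at 10 days (-2.88 ± 0.35, adjusted p 3.10e-06) and 30 days (-1.63 ± 0.33, adjusted p 0.000481). Acss2, its cytosolic relative, fell at the same times (-1.40 and -0.76), as did Acsf2, a mitochondrial medium-chain synthetase (-0.75 and -0.68). None of these 3 was called at 60 days (-0.40, -0.33 and -0.29), when library totals turned all 3 (0.0069, 0.083 and 0.11). With library totals the falls of Acsf2 at 10 days (-0.088) and 30 days (-0.19) and of Acss2 at 30 days (-0.27) were not called. The median of the 5 was -0.75, -0.76 and -0.33, and -0.088, -0.27 and 0.083 with library totals.

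Acyl-CoA binding proteins and thioesterases, which carry acyl-CoA or split it again, numbered 21 in the table and 14 tested. At 10 days 3 were higher and 7 lower, at 30 days 5 and 4, and at 60 days 3 and 5, with medians of -0.30, 0.054 and -0.0055. Library totals gave 7 higher and 3 lower, 10 and 2, and 9 and 1, with medians of 0.36, 0.55 and 0.40, and upper-quartile factors gave 4 and 2 at 60 days with a median of 0.14. Acot9, a mitochondrial thioesterase, had the largest rise, from 36.7 CPM ± 1.499 (SD, n = 4) to 138 ± 5.87 at 10 days (1.91 ± 0.10, adjusted p 2.47e-10), and it was 0.95 at 30 days and 0.25 at 60 days, called at both. Acot13 (-1.59, -0.73 and -0.35) and Acot7 (-1.17, -0.61 and -0.42), also thioesterases, were lower at all 3 times. Under library totals neither fall was called at 30 days (-0.24 for Acot13 and -0.12 for Acot7) or at 60 days, when Acot13 turned to 0.061 and Acot7 was -0.017. Under upper-quartile factors Acot13 was not called at 60 days (-0.21). Acbd5, a peroxisomal binding protein, was lower at 30 days (-1.05) and 60 days (-1.06) and not called at 10 days (0.18), though it was with library totals (0.84). Acbd4 was higher at all 3 times (0.55, 0.41 and 0.64; 0.38 and not called at 30 days with RLE factors). Acbd3 was higher at 10 days (0.40) and not called later (-0.0073 and -0.044), when library totals turned it to called rises (0.49 and 0.36) and upper-quartile factors to 0.12, called, and 0.098, not called.

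The genes whose pattern was most like a member's were found by Pearson's r of log2 CPM over the 16 libraries, among 8214 genes with a mean of at least 5 CPM. The highest were Grtp1 (0.998) and Ppa2 (0.995) for Acsm5, Spg21 (0.990) and Taf9 (0.983) for Acsl3, Litaf (0.987) and Emb (0.985) for Acsl4, and Slc37a4 and Afap1l1 (both 0.986) for Acsl6. Acsl1 was most like Pptc7 (0.965) and Dgat1 (0.950), the latter an enzyme of triacylglycerol synthesis. Cd36 was most like Osbp (0.953) and Pde4a (0.949), Fabp3 like Zcchc17 (0.934) and Hibch (0.896), and Slc27a1 like Gltpd1 (0.918) and Bcat2 (0.916). Acsl5 was most like Mdfic (0.922) and Elk3 (0.907), and Slc27a4 like Ier5 (0.887) and Pak1ip1 (0.886). The 16 points include the differences between the 4 groups, and r within the groups was not computed.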

How the data were processed

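The authors deposited 1 table of estimated counts, raw fragments per gene in each of 16 libraries, not scaled for depth or gene length, per the file headers. The submitters' processing notes name bcl2fastq 1.8.4, FastQC, TopHat2 2.0.9, Bowtie2 2.1.0.0, Cufflinks, Cuffdiff 2.1.1 and the build rn5. The annotation and strand setting are not given in the sources used here. Per the labels, libraries were made with the TruSeq mRNA kit. Groups follow the time in the labels, and replicates 1 to 4 are used here only as names of libraries.

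Values were rounded (233 of 17147 genes, none of them a member, have a fractional value). filterByExpr kept 11658 genes. All 16 libraries entered 1 edgeR 4.0.16 quasi-likelihood model with TMM factors, robust estimation and no covariate (R 4.3.3), and 6 pairs of groups were compared. A standard error (SE) is the log2 fold change divided by the root of F; values in the text are log2 fold change ± SE. Alternatives were RLE and upper-quartile factors, library totals, DESeq2 1.42.0, limma-voom (3.58.1), no filter, a mean of at least 1 CPM, fits of 2 groups, the column-name suffix as a replicate block, a covariate for the letter ending each title, and fits without each library in turn. The letter ending each title is L or R, and the number before it differs between all 16 libraries. Whether that number names a rat is not given in the sources used here. Thinning to the smallest total was added after seeing the data. The scripts were tested on simulated data. Members and lists were chosen with earlier results of these data known. Named genes were all members, up to 3 risers and 3 fallers called against 0 days in each of 3 pathway lists (mean of at least 5 CPM), and the 2 genes most like each member. Of the lists of markers, Schwann cell genes (8) were called 1 higher and 4 lower at 10 days, 3 and 1 at 30 days, and 7 and 0 at 60 days (3 and 2, 5 and 0, and 8 and 0 with library totals). Promoters were matched by symbol for 10 of 10 members. Floors cover counting error only, since PCR copies are not independent molecules.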

Additional observations from a re-analysis of the deposited data

Results flagged for a closer look

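In 40 groups of 4 values (10 members at 4 times), 2 libraries stood apart from the other 3 of their group, as chance gives in about 1 of 20 groups. Acsl4 measured 35.8 CPM in 0-day replicate 1 against 46.5, 47.6 and 48.2 in the others, and 337 CPM in 10-day replicate 4 against 284 to 291. Its 10-day log2 fold change stayed between 2.67 and 2.79 over the 16 fits that each left out 1 library.

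The change from 0 days differed between 2 times for 16 of 30 member comparisons. Each was tested directly as the difference of the 2 operated groups with edgeR (adjusted p under 0.05). They are the calls already given for the operated groups. Of all 11658 genes tested, 5513 were called between 30 and 10 days, 2636 between 60 and 30 days and 7120 between 60 and 10 days. Between 30 and 10 days the log2 differences were 0.87 for Fabp3, -0.62 for Acsl3, -1.05 for Acsl4, 1.20 for Acsl6 and 2.51 for Acsm5. Between 60 and 30 days they were 0.50 for Cd36, -1.33 for Acsl3, -0.67 for Acsl4 and 0.99 for Acsm5. Between 60 and 10 days they were 0.84 for Cd36, 0.47 for Slc27a1, -1.95 for Acsl3, -1.72 for Acsl4, 0.55 for Acsl5, 1.40 for Acsl6 and 3.5 for Acsm5.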

How the results depend on the processing

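The falls of Acsl1, Acsl6 and Acsm5 and the rise of Acsl4 were called at 10, 30 and 60 days under every alternative run, and so was the rise of Acsl3 except at 60 days without 60-day replicate 1. Of the 60 member comparisons, 60 kept their call with RLE factors and with a mean of at least 1 CPM, 59 with DESeq2 and with thinning, 58 with limma-voom, with no filter and with the replicate block, 57 with the title letter and with fits of 2 groups, 56 with upper-quartile factors and 47 with library totals. The 10-day value of Acsl5 turned from -0.24 to a called 0.42 with library totals. Between the operated groups the values of Acsl1, none of them called, also changed sign under some alternatives (30 against 10 days: 0.019, and -0.15 with library totals). The number of members higher at 60 days than at 0 days was 4, not 2, with upper-quartile factors and with library totals. The number of members higher at 60 than at 30 days was 1, not 2, with library totals and with fits of 2 groups, and 1 to 2 without 1 library; the number lower was 1, not 2, with fits of 2 groups. The number of members higher at 60 than at 10 days was 3, not 5, with library totals.

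Deviations from the group means of libraries that share a column suffix had correlations of -0.24 to 0.22 over 24 pairs (mean 0.0013). Of 16 libraries, 4 correlated best with their own suffix. The suffix is used here as a name of libraries, and whether it marks anything they share was not tested. The replicate block changed 2 of 60 calls, losing Slc27a1 (0.46) and gaining Slc27a4 (-0.25) at 60 against 10 days. Depth was lowest at 60 days, and thinning to that depth changed 1 call of 60, Slc27a4 at 60 against 10 days (-0.28, adjusted p 0.0469).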

Other observations

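Some libraries were lowest or highest of their group for several members. At 10 days replicate 2 was the lowest library for 8 of the 10 members. It was also lowest of its group for the summed endothelial (230 CPM), fibroblast (982 CPM) and Schwann cell markers (47.2 CPM). For the adipocyte, macrophage and muscle fibre sums it was not the lowest. At 60 days replicate 1 was lowest for 6 of 10 (Cd36, Fabp3, Slc27a1, Acsl1, Acsl5 and Acsm5) and highest for Acsl3 and Acsl4. Its summed endothelial markers, 376 CPM, were the lowest of the 60-day libraries (475 to 576 in the others), and its summed muscle fibre markers, 157150 CPM, were the highest (133560 to 147380). Its summed Schwann cell markers, 174 CPM, were also the lowest, and its adipocyte, macrophage and fibroblast sums were neither lowest nor highest. At 30 days replicate 2, the largest library of the series at 39.9 M fragments, was highest for Cd36, Fabp3, Slc27a1, Acsl1 and Acsl5. These are values of single libraries, seen after the data were examined and not tested.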
